A study of Homo sapiens with 9 samples.

Results

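The genes described here were the atypical MAPKs and the ERK5 arm of the kinome screen: MAPK6 (ERK3), MAPK4 (ERK4), MAPKAPK5 (MK5), MAP2K5 (MEK5), MAPK7 (ERK5), MAPK15 and NLK. They were chosen by name, as the rows whose target gene was 1 of these 7 symbols, and made up 7 of the 763 genes in the library and 28 of its 3152 single guide RNAs (sgRNAs), with 4 sgRNAs per gene. All 28 passed the filter on low counts.

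Most MAPKs are switched on by a MAPK kinase that phosphorylates a threonine and a tyrosine in the activation loop. The atypical members depart from this scheme: MAPK6 and MAPK4 carry a loop with a single phosphorylation site that PAK kinases use, and both bind and activate the kinase MAPKAPK5. NLK acts downstream of MAP3K7 and HIPK2 on transcription factors of Wnt and other pathways, and MAPK15 largely activates itself. ERK5, the product of MAPK7, is a conventional but very large MAPK with its own dedicated MAPK kinase, MAP2K5, and is known for roles in growth factor and stress signalling, including in the muscle lineage.

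RH4 is an established rhabdomyosarcoma cell line with the PAX3::FOXO1 fusion, so all values come from 1 line. All cells, the baseline ones included, carried the Brunello kinome knockout library with Cas9 and had gone through puromycin selection (0.25 µg/ml, over 72 h, begun 48 h after infection) at a coverage of 1000 cells per sgRNA. The groups were 1.5 nM pralatrexate for 10 days (an antifolate that blocks dihydrofolate reductase), vehicle control for 10 days, and baseline, taken after selection and without either treatment, with 3 libraries each. Cells of both day 10 groups had 72 h of recovery after selection, before treatment began, and were passaged at intervals of 4 days. Day 10 therefore counts from the start of treatment, not from baseline. Reads counted how often each sgRNA was amplified from genomic DNA, so a lower share of reads means that fewer of the cells carried that sgRNA. The labels call the libraries repeats, and the study's text calls them both cultures and technical replicates, so a p-value here reflects how far libraries of a group spread, and that spread may be technical. The study's main text gives a longer selection than its methods and the labels, so the time between baseline and day 10 is uncertain.

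Library totals ran between 2468136 and 4227230 reads with pralatrexate, between 3194504 and 4602712 with vehicle and between 3483100 and 4431337 at baseline. The lowest total was that of pralatrexate replicate 2. Single sgRNAs of the 7 genes had 71 to 3855 reads in a library, and their means over the 9 libraries ran between 169 and 2563.67 reads. The libraries of a group differed by a coefficient of variation of 13.2%, which sets the size of change that 3 libraries can show.

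In the GRCh38.p14 annotation of RefSeq, MAPK6 (chromosome 15, 51971825 to 52067375) and MAP2K5 (chromosome 15, 67542703 to 67807114) lie on the same chromosome, as do MAPK7 (chromosome 17, 19377750 to 19383544) and NLK (chromosome 17, 28042677 to 28206074). MAPKAPK5 lies on chromosome 12 (111842228 to 111902222), MAPK4 on chromosome 18 (50559612 to 50731826) and MAPK15 on chromosome 8 (143716349 to 143722458). These are spans of the genes. The sgRNA sequences were not used here, so neither cut sites nor further matching sites of an sgRNA were placed.

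Of the 7 genes, MAPK6 was the only one called by rank aggregation in any comparison. Its sgRNAs fell in pralatrexate cells to 0.665 of baseline (FDR 0.0274), and in vehicle cells they stood at 0.722 of baseline without passing the gene test (FDR 0.15). MAPKAPK5, the kinase that MAPK6 activates, had the next lowest values, 0.688 of baseline with pralatrexate and 0.76 with vehicle, with 3 of its 4 sgRNAs lower. The sgRNAs of MAPK4, MAP2K5, MAPK7, MAPK15 and NLK averaged between 0.874 and 1.11 of baseline in both day 10 groups. None of the 7 was called between pralatrexate and vehicle.

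**Figure D1:**
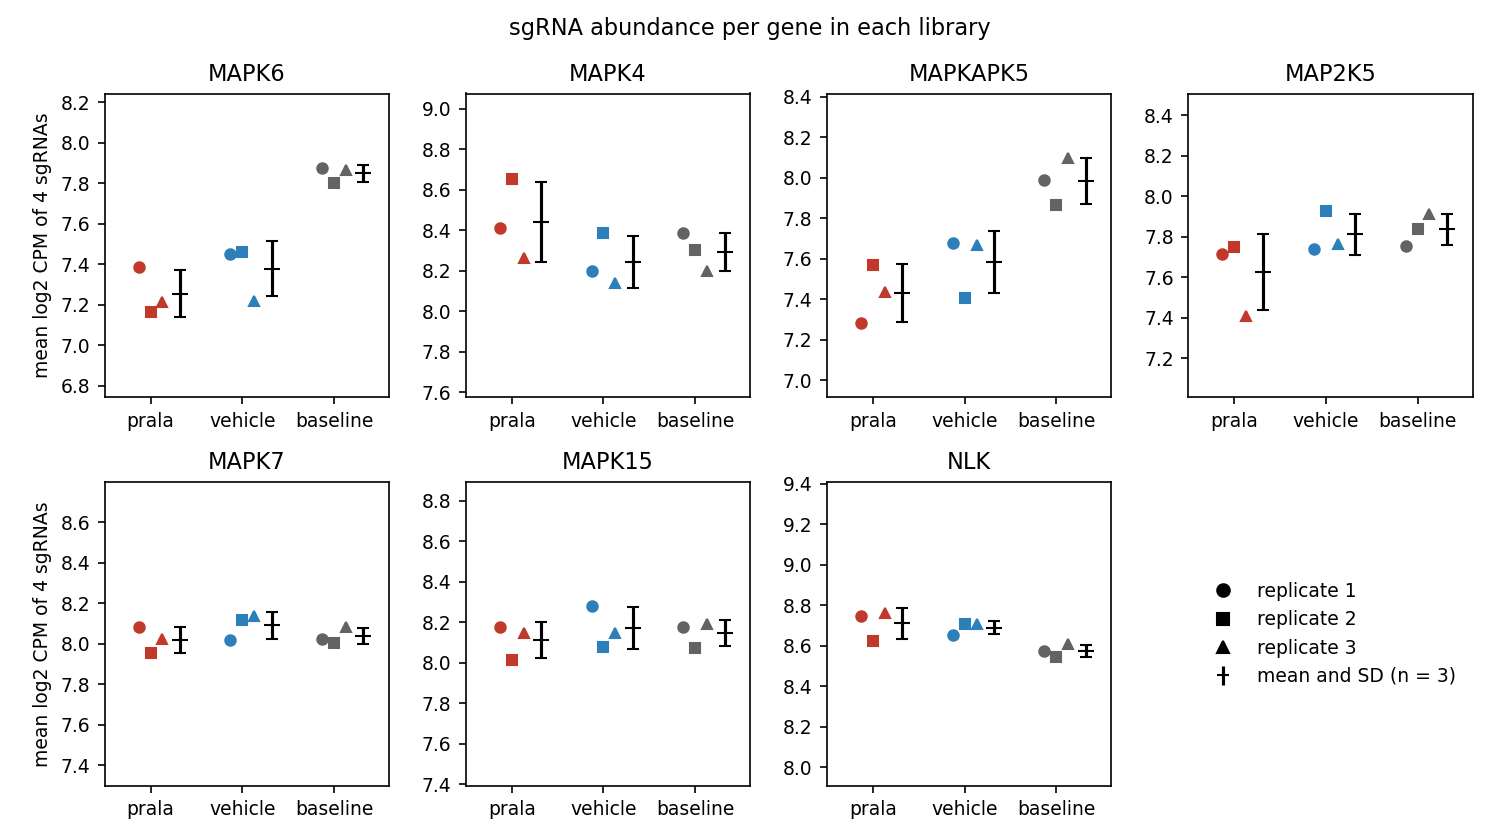
Mean log2 CPM of the 4 sgRNAs of each gene (vertical axis) in pralatrexate, vehicle and baseline libraries, with 1 point per library and the mean with SD (n = 3) beside it; every panel spans the same range of log2 units. MAPK6 and MAPKAPK5 lie lower in all 6 day 10 libraries than in any baseline library, and NLK lies higher in all 6.

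MAPK6 encodes ERK3, an unstable kinase that is controlled largely through its own degradation. Its level, the mean log2 CPM (reads scaled to the library's size, on the log2 scale) of its 4 sgRNAs, was 7.38, 7.16 and 7.21 in pralatrexate libraries, 7.45, 7.46 and 7.22 in vehicle libraries and 7.88, 7.80 and 7.87 in baseline libraries. Both day 10 groups lay wholly below baseline, and they overlapped each other. With pralatrexate against baseline the log2 fold change was -0.59 ± 0.09 (SD, 4 sgRNAs), the 75th lowest of 763 genes, and the gene was called depleted (rank aggregation on edgeR's test, FDR 0.0274). With vehicle against baseline it was -0.47 ± 0.18 (SD, 4 sgRNAs), the 87th lowest, with FDR 0.15. The 95% confidence intervals over libraries (limma) were -0.77 to -0.42 with pralatrexate and -0.64 to -0.30 with vehicle. The difference between the day 10 groups was -0.12 ± 0.18 (SD, 4 sgRNAs), with an interval of -0.30 to 0.05, so a call in 1 day 10 group and not in the other is no difference between them.

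All 4 MAPK6 sgRNAs were lower than baseline in both day 10 groups, and for each of them no library of either day 10 group reached the lowest baseline library. The share of all sgRNAs with such libraries was not counted. At the level of genes it was 25.6% with pralatrexate against baseline and 24.4% with vehicle against baseline. sgRNA 4 had 207, 174 and 212 CPM with pralatrexate, 221, 203 and 175 with vehicle and 350, 308 and 300 at baseline. Its log2 fold change was -0.69 ± 0.15 (SE, edgeR FDR 0.00124) with pralatrexate and -0.68 ± 0.15 (SE, edgeR FDR 0.00147) with vehicle, which are nearly the same value. sgRNA 1 had 236, 218 and 222 CPM with pralatrexate, 242, 264 and 225 with vehicle and 361, 295 and 328 at baseline. It also passed the test in both day 10 groups, at -0.54 ± 0.14 (SE, edgeR FDR 0.0054) with pralatrexate and -0.43 ± 0.14 (SE, edgeR FDR 0.0275) with vehicle. sgRNA 2, at 125, 78.3 and 95.3 CPM with pralatrexate, 135, 131 and 124 with vehicle and 146, 147 and 168 at baseline, passed in the pralatrexate group (-0.62 ± 0.21, SE, edgeR FDR 0.0362) and had -0.25 ± 0.21 (SE, edgeR FDR 0.458) with vehicle. sgRNA 3 did not pass in either group, at -0.50 ± 0.20 (SE, edgeR FDR 0.0858) with pralatrexate and -0.53 ± 0.20 (SE, edgeR FDR 0.0642) with vehicle.

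The 4 sgRNAs of MAPK6 thus spanned 0.19 log2 units with pralatrexate against baseline, where their SD of 0.09 was smaller than that of all but 75 of the 763 genes, whose median SD was 0.18. In the other comparisons their SD was not small among the genes. With vehicle against baseline they spanned 0.43, and 348 genes had a smaller SD than their 0.18 (median 0.19). With pralatrexate against vehicle 560 genes had a smaller one. The call with pralatrexate against baseline held when any 1 of the 6 libraries was left out (log2 fold change -0.66 to -0.55, FDR 0.0223 to 0.0497). It was lost when libraries were scaled on the non-targeting sgRNAs (-0.91, FDR 0.0714) and, in a check chosen after the result was seen, without its sgRNA of largest change (-0.55, FDR 0.0944).

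**Figure D2:**
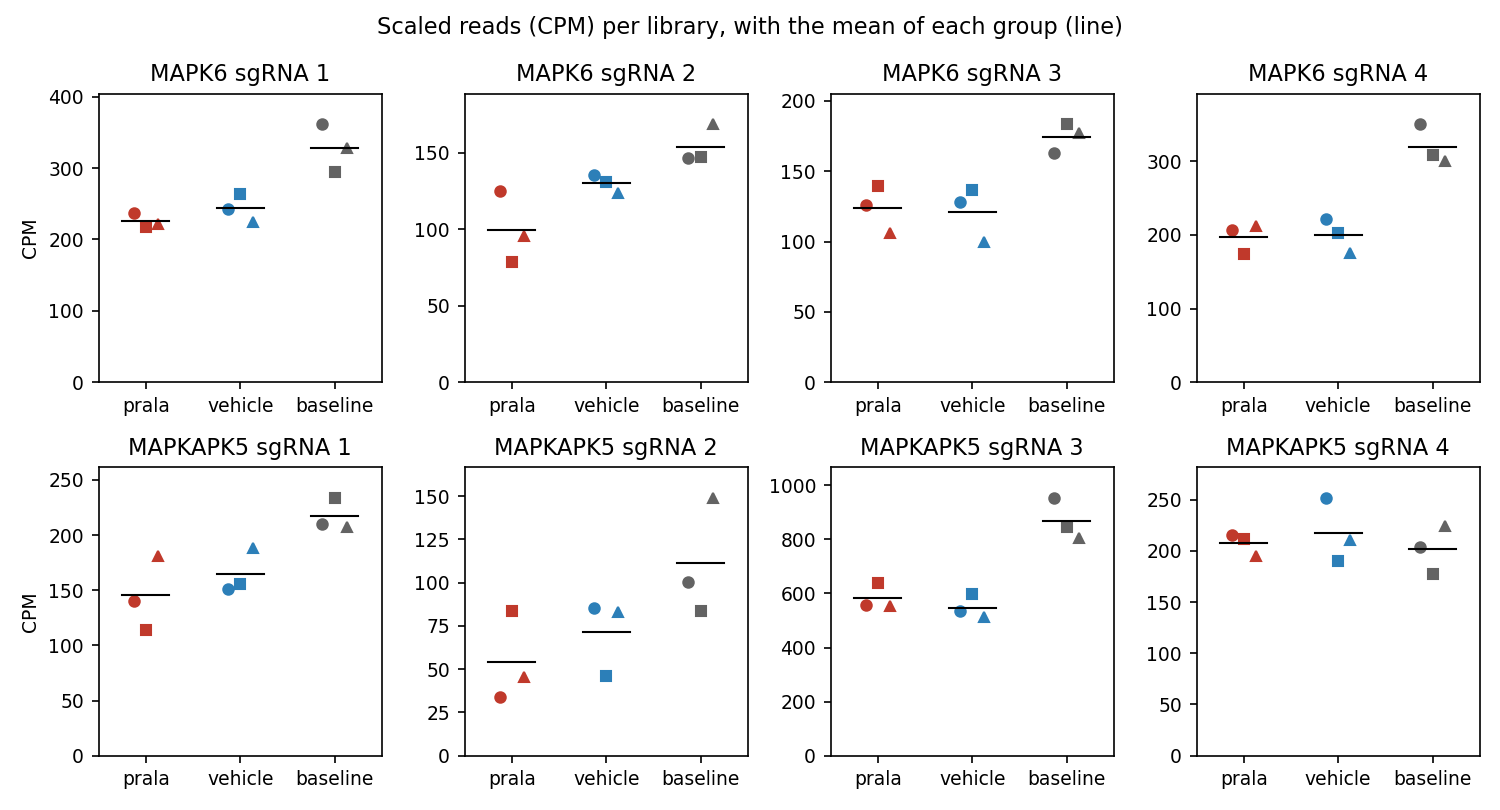
CPM (vertical axes start at 0) of each sgRNA of MAPK6 (top row) and MAPKAPK5 (bottom row) in pralatrexate, vehicle and baseline libraries; points are libraries and lines are group means. The 4 MAPK6 sgRNAs and MAPKAPK5 sgRNAs 1 and 3 lie lower in both day 10 groups than in any baseline library, and MAPKAPK5 sgRNA 4 overlaps baseline. The share of all sgRNAs that lie wholly lower was not counted.

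MAPKAPK5 encodes MK5 (PRAK), a substrate and partner of ERK3 and ERK4 that p38 kinases can also phosphorylate. Its level was 7.28, 7.57 and 7.44 with pralatrexate, 7.68, 7.41 and 7.67 with vehicle and 7.99, 7.87 and 8.10 at baseline, in log2 CPM. Both day 10 groups lay below every baseline library. The log2 fold change was -0.54 ± 0.44 (SD, 4 sgRNAs; FDR 0.184) with pralatrexate against baseline and -0.40 ± 0.36 (SD, 4 sgRNAs; FDR 0.349) with vehicle against baseline, neither of which passed. The intervals over libraries (limma, 95%) were -0.75 to -0.36 with pralatrexate and -0.59 to -0.20 with vehicle, and they leave out the spread between the sgRNAs.

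With pralatrexate against baseline, sgRNAs 2 and 4 lay farthest from the gene mean, on opposite sides of it. sgRNA 4 had 216, 212 and 195 CPM with pralatrexate, 252, 190 and 211 with vehicle and 204, 177 and 225 at baseline, so its groups overlapped, and its log2 fold changes were 0.04 ± 0.16 with pralatrexate and 0.11 ± 0.16 with vehicle (SE). sgRNA 3, the most abundant of the 4, had 558, 638 and 553 CPM with pralatrexate, 534, 597 and 511 with vehicle and 953, 847 and 805 at baseline. It fell by 0.58 ± 0.10 on the log2 scale with pralatrexate (SE, edgeR FDR 7.11e-05) and fell by 0.67 ± 0.10 with vehicle (SE, edgeR FDR 8.26e-06), the smallest sgRNA FDR of the 7 genes in both day 10 groups. sgRNA 1, at 140, 114 and 181 CPM with pralatrexate, 151, 156 and 188 with vehicle and 210, 234 and 207 at baseline, passed with pralatrexate (-0.58 ± 0.19, SE, edgeR FDR 0.0292) and did not with vehicle (-0.39 ± 0.19, SE, edgeR FDR 0.145). sgRNA 2, the rarest, had 34.1, 83.6 and 45.5 CPM with pralatrexate, 85.6, 46.3 and 83.2 with vehicle and 101, 83.8 and 149 at baseline. It had the largest change of any sgRNA of the 7 genes, -1.04 ± 0.32 with pralatrexate (SE, edgeR FDR 0.0183), where 1 pralatrexate library came close to the lowest baseline library, and -0.63 ± 0.31 with vehicle (SE, edgeR FDR 0.16), where vehicle and baseline overlapped. At a minimum mean of 300 reads, which leaves out sgRNA 2, MAPKAPK5 stood at -0.37 with pralatrexate (rank aggregation FDR 0.532) and -0.32 with vehicle (FDR 0.717). Without its sgRNA of largest change, a check chosen after the result was seen, it stood at -0.37 (FDR 0.558) and -0.31 (FDR 0.782).

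Whether MAPKAPK5 was called turned on the way of joining sgRNAs into a gene value. With the reads of the 4 sgRNAs summed (edgeR), it was called depleted at -0.51 with pralatrexate (FDR 5.58e-08) and at -0.49 with vehicle (FDR 1.19e-07), and with limma on the gene means at -0.55 (FDR 0.000144) and -0.40 (FDR 0.00316). The same tests called MAPK6 depleted with vehicle too, at -0.50 (edgeR on summed reads, FDR 1.07e-05) and -0.47 (limma, FDR 0.000211). These tests do not ask whether the sgRNAs of a gene move together, and with vehicle against baseline they called 270 (summed reads) and 220 (limma) of 763 genes, against 51 depleted and 3 enriched by rank aggregation.

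MAPK4 encodes ERK4, the closest relative of ERK3. Its level was 8.41, 8.65 and 8.26 with pralatrexate, 8.20, 8.39 and 8.14 with vehicle and 8.38, 8.30 and 8.20 at baseline, in log2 CPM, and the 3 groups overlapped. Against baseline its log2 fold change was 0.15 ± 0.11 (SD, 4 sgRNAs; interval -0.06 to 0.35, limma) with pralatrexate, which turned to -0.17 on non-targeting scaling, and -0.06 ± 0.20 (SD, 4 sgRNAs; interval -0.25 to 0.15, limma) with vehicle. With pralatrexate against vehicle it was 0.21 ± 0.14 (SD, 4 sgRNAs), 749th of 763 from the lowest, with all 4 sgRNAs above 0 at 0.03 to 0.33. That was not called (FDR 0.73 by rank aggregation, 0.923 by limma), and the interval was -0.00 to 0.40. It rested in part on pralatrexate replicate 2: without that library MAPK4 stood at 0.093 with pralatrexate against vehicle and at 0.038 with pralatrexate against baseline.

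Set against MAPK4, the level of MAPK6 was lower in all 3 libraries of each day 10 group than in any baseline library. MAPK6 minus MAPK4 was -1.03, -1.49 and -1.05 log2 units with pralatrexate, -0.75, -0.93 and -0.92 with vehicle and -0.51, -0.50 and -0.33 at baseline, and the 3 groups did not overlap. How many other pairs of genes in the library do the same was not counted. This difference shifted by -0.74 with pralatrexate and by -0.42 with vehicle, both against baseline, and by -0.32 between pralatrexate and vehicle. Each gave an exact two-sided permutation p of 0.1, the smallest that 3 against 3 libraries allow, and 0.3 after adjustment over 9 such tests. Between pralatrexate and vehicle the level of MAPK4 rose by 0.20 and that of MAPK6 fell by 0.12 (limma). For each gene on its own these 2 groups overlapped. The lowest value, -1.49, was that of pralatrexate replicate 2, on which the MAPK4 value rested in part. With same-numbered day 10 libraries taken as pairs, a check added after the results were seen, MAPK6 minus MAPK4 was lower with pralatrexate in 3 of 3 pairs, with differences of -0.28, -0.56 and -0.13 (exact paired permutation p = 0.25, the smallest that 3 pairs allow). The difference between MAPK6 and MAPKAPK5 shifted by -0.04, -0.07 and 0.03 in these comparisons (exact p = 0.9, 0.8 and 0.7; 1 within pairs for the last), and its groups overlapped.

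MAP2K5 encodes MEK5, the only MAPK kinase known to activate ERK5. Its level was 7.71, 7.75 and 7.41 with pralatrexate, 7.74, 7.93 and 7.77 with vehicle and 7.76, 7.84 and 7.91 at baseline, in log2 CPM. The pralatrexate libraries lay below baseline by a narrow margin, and the vehicle libraries overlapped both. The log2 fold change was -0.19 ± 0.42 (SD, 4 sgRNAs; interval -0.40 to -0.02; FDR 1, limma FDR 0.0863) with pralatrexate against baseline, -0.02 ± 0.31 (SD, 4 sgRNAs; interval -0.21 to 0.16) with vehicle against baseline and -0.18 ± 0.46 (SD, 4 sgRNAs; FDR 0.983) with pralatrexate against vehicle. Without pralatrexate replicate 3, the lowest of its libraries, MAP2K5 stood at -0.10 with pralatrexate against baseline and at -0.086 with pralatrexate against vehicle.

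The MAP2K5 values rested on sgRNAs that went different ways. sgRNA 2 had the fewest reads of all 28, with 116, 102 and 71 reads with pralatrexate, 144, 303 and 210 with vehicle and 186, 205 and 184 at baseline, and a log2 fold change of -0.85 ± 0.35 with pralatrexate against vehicle (SE, unadjusted p = 0.0224, edgeR FDR 0.82). It was the single sgRNA of the 28 with an unadjusted p under 0.05 in that comparison, and without it, at a minimum mean of 300 reads, the gene stood at 0.05. sgRNA 3, at 542, 633 and 657 CPM with pralatrexate, 582, 603 and 712 with vehicle and 518, 518 and 504 at baseline, rose by 0.30 ± 0.11 on the log2 scale with vehicle (SE, edgeR FDR 0.0433), a value just below the median of the non-targeting sgRNAs. sgRNA 4 had -0.43 ± 0.16 with vehicle against baseline (SE, edgeR FDR 0.0536), so 2 sgRNAs of this gene lay on opposite sides of 0 by more than their errors.

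MAPK7 encodes ERK5 itself. Its level was 8.08, 7.95 and 8.02 with pralatrexate, 8.02, 8.12 and 8.14 with vehicle and 8.02, 8.005 and 8.08 at baseline, in log2 CPM, with all groups overlapping. The log2 fold change was -0.02 ± 0.11 with pralatrexate against baseline (interval -0.16 to 0.13), 0.06 ± 0.07 with vehicle against baseline (interval -0.09 to 0.20; -0.28 on non-targeting scaling) and -0.07 ± 0.10 with pralatrexate against vehicle (SD, 4 sgRNAs; limma intervals). With vehicle against baseline its 4 sgRNAs spanned 0.16 log2 units, the narrowest range of the 7 genes. MAPK7 minus MAP2K5 shifted by 0.19 with pralatrexate against baseline, 0.08 with vehicle against baseline and 0.11 with pralatrexate against vehicle (exact permutation p = 0.2, 0.2 and 0.5; 0.25 within pairs for the last).

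MAPK15, which encodes ERK7/8, a kinase linked to cilia and autophagy, had levels of 8.17, 8.01 and 8.15 with pralatrexate, 8.28, 8.08 and 8.15 with vehicle and 8.18, 8.07 and 8.19 at baseline, in log2 CPM. The groups overlapped. Its log2 fold changes were -0.03 ± 0.23 with pralatrexate against baseline (interval -0.19 to 0.12), 0.02 ± 0.24 with vehicle against baseline (interval -0.13 to 0.18; -0.31 on non-targeting scaling) and -0.06 ± 0.06 with pralatrexate against vehicle (SD, 4 sgRNAs; limma intervals). None of its sgRNAs passed the test in any comparison.

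NLK, the Nemo-like kinase, was the only gene of the 7 whose libraries all lay higher than baseline in both day 10 groups. Its level was 8.75, 8.62 and 8.76 with pralatrexate, 8.65, 8.71 and 8.71 with vehicle and 8.58, 8.55 and 8.61 at baseline, in log2 CPM. The log2 fold change was 0.14 ± 0.22 (SD, 4 sgRNAs; FDR 0.799, limma FDR 0.138; interval -0.01 to 0.28) with pralatrexate and 0.11 ± 0.31 (SD, 4 sgRNAs; FDR 0.912, limma FDR 0.209; interval -0.03 to 0.25) with vehicle, neither of which passed, and these values turned to -0.18 and -0.22 on non-targeting scaling. sgRNA 2 of NLK had 494, 514 and 537 CPM with pralatrexate, 508, 481 and 538 with vehicle and 386, 359 and 407 at baseline, without overlap between day 10 and baseline. It rose by 0.42 ± 0.11 on the log2 scale with pralatrexate (SE, edgeR FDR 0.00421) and by 0.41 ± 0.11 with vehicle (SE, edgeR FDR 0.00576), inside the range of the non-targeting sgRNAs. sgRNA 3 went the other way with vehicle, at -0.32 ± 0.14 (SE, edgeR FDR 0.105).

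**Figure D3:**
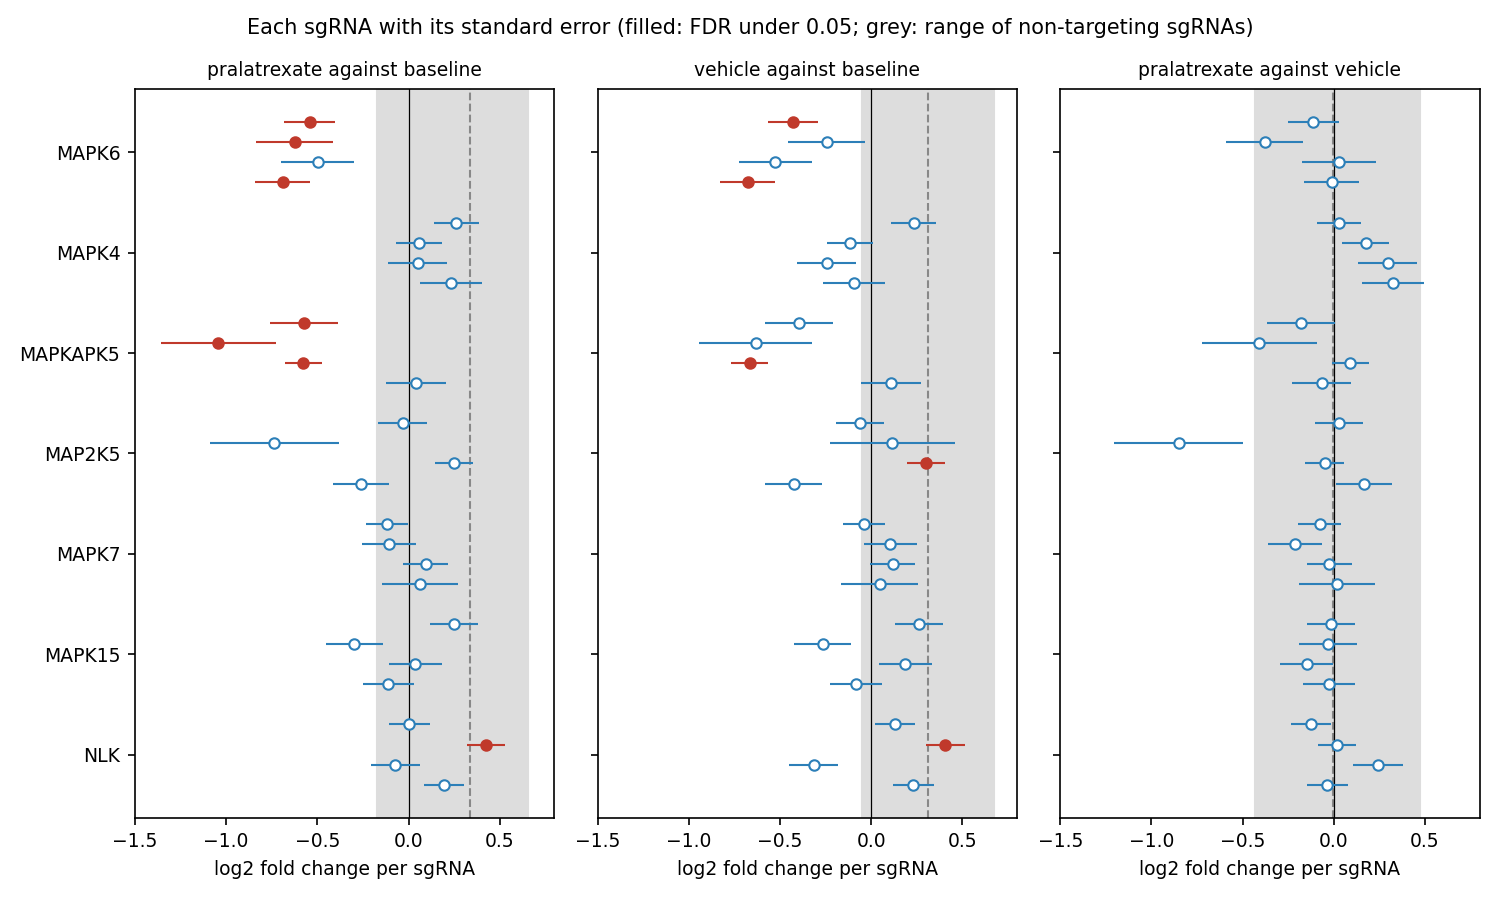
Log2 fold change of each of the 28 sgRNAs (horizontal axes, points with SE, sgRNAs 1 to 4 of each gene downwards) in 3 panels (pralatrexate against baseline, vehicle against baseline, pralatrexate against vehicle); filled red points passed an FDR of 0.05, the grey band is the range of 99 non-targeting sgRNAs and the dashed line their median. All called sgRNAs on the low side belong to MAPK6 or MAPKAPK5.

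Counted over the genes, 1 of the 7 was depleted (7.21% of all 763 genes) and 0 enriched (0.262% of all genes) with pralatrexate against baseline. With vehicle against baseline, 0 were depleted (6.68% of all genes) and 0 enriched (0.393%) by rank aggregation on edgeR's p-values. Limma (19.8% of all genes depleted) and edgeR on summed reads (21% depleted) each called 2, MAPK6 and MAPKAPK5, both depleted. A count of 2, 1 or 0 among 7 genes is not set apart from these shares. By rank aggregation 2 genes, MAPK6 and MAPKAPK5, had an unadjusted p under 0.05 with pralatrexate against baseline. With vehicle against baseline 1 gene did, MAPK6. The share of all genes with such a p was not counted in either comparison. Libraries did not overlap for 3 genes on the low side (25.6% of all genes) and 1 on the high side (20.3%) with pralatrexate against baseline, and for 2 on the low side (24.4%) and 1 on the high side (19.5%) with vehicle against baseline. The counts on the low side are MAPK6 and MAPKAPK5 in both comparisons, with MAP2K5 added for pralatrexate, and no test was made on them. The median log2 fold change of the 7 was -0.03 with pralatrexate against baseline, against 0.01 over all genes, and -0.02 with vehicle against baseline, against 0.02 over all genes. The 2 comparisons share the baseline libraries.

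Among the 28 sgRNAs, 6 were lower (13.1% of all 3145 tested) and 1 higher (5.98%) with pralatrexate against baseline. All 6 target MAPK6 or MAPKAPK5, 3 each, and the 1 targets NLK. With vehicle against baseline, 3 were lower (12.8% of all tested) and 2 higher (6.26%). The 3 were sgRNAs 1 and 4 of MAPK6 and sgRNA 3 of MAPKAPK5, and the 2 were sgRNA 3 of MAP2K5 and sgRNA 2 of NLK.

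With pralatrexate against vehicle, 0 of the 7 genes were depleted (0.524% of all genes) and 0 enriched (0% of all genes) by rank aggregation on edgeR's p-values. Limma (0.524% of all genes depleted and 0.131% enriched) and edgeR on summed reads (0.786% and 0.131%) also called 0. By rank aggregation 1 gene, MAPK4, had an unadjusted p under 0.05, and the share of all genes with such a p was not counted. No sgRNA was lower (0.0318% of all tested) or higher (0%) by edgeR, and 0 genes had libraries that did not overlap on the low side (3.41% of all genes) or the high side (3.67%). The smallest depleted gene of the whole library in this comparison changed by 0.363 log2 units, and the lowest bounds of the 95% intervals of the 7 genes were -0.38 for MAP2K5 and -0.35 for MAPKAPK5.

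**Figure D4:**
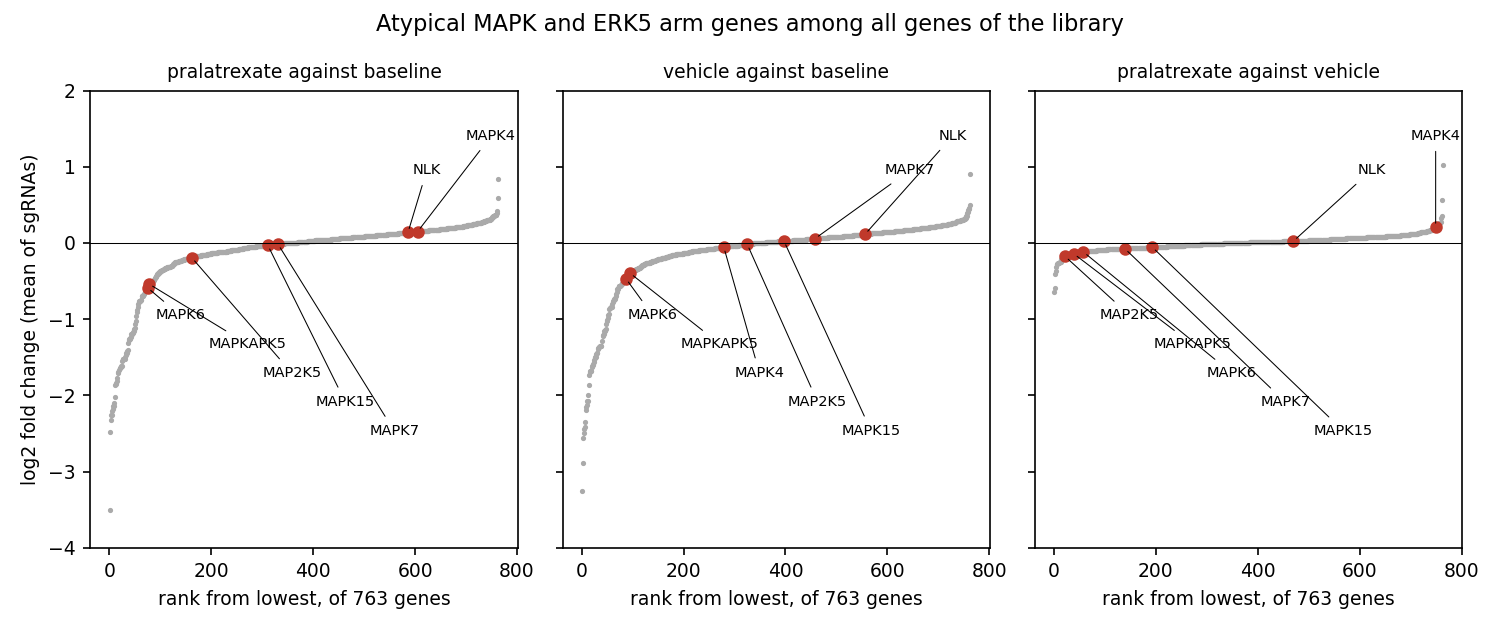
Log2 fold change of all 763 genes (vertical axis, grey), ordered from lowest (horizontal axis), for pralatrexate against baseline, vehicle against baseline and pralatrexate against vehicle, with the 7 genes in red. MAPK6 and MAPKAPK5 stand 75th and 78th lowest with pralatrexate against baseline, and 87th and 95th with vehicle against baseline.

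The 99 non-targeting sgRNAs, which cut no gene, had a median log2 fold change of 0.34 (range -0.17 to 0.66) with pralatrexate against baseline and 0.31 (range -0.05 to 0.67) with vehicle against baseline. Relative to that median, all 7 genes were lower in both comparisons. The difference was -0.92 for MAPK6, -0.87 for MAPKAPK5, -0.53 for MAP2K5, -0.37 for MAPK15, -0.35 for MAPK7, -0.20 for NLK and -0.19 for MAPK4 with pralatrexate against baseline. When libraries were scaled on these sgRNAs, the median over all genes became -0.31 with pralatrexate and -0.32 with vehicle, so values near these mark the library as a whole. On that scaling 16 of the 28 sgRNAs were called lower and 0 higher in each day 10 group. Over all 3145 sgRNAs, 1350 were lower and 8 higher with pralatrexate, and 1421 and 11 with vehicle. Of the 28 sgRNAs, 10 were below the lowest non-targeting sgRNA with pralatrexate (27.7% of all targeting sgRNAs) and 15 with vehicle (40.7% of all targeting sgRNAs), among them all 4 of MAPK6 and 3 of MAPKAPK5 in both. 0 were above the highest. With pralatrexate against vehicle the non-targeting median was -0.00, and 1 of the 28, sgRNA 2 of MAP2K5, was below their range (1.48% of all targeting sgRNAs).

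Among 13 kinases that act directly on these genes' products or are their direct targets, 2 were depleted in each day 10 group against baseline, where the share of all genes was 7.21% with pralatrexate and 6.68% with vehicle. None was enriched (0.262% of all genes with pralatrexate and 0.393% with vehicle). With pralatrexate against vehicle, 0 were called in either direction (0.524% depleted and 0% enriched over all genes). PAK2, which phosphorylates the activation loop of ERK3 and ERK4, fell, with a log2 fold change of -1.53 with pralatrexate (FDR 0.0044) and -1.67 with vehicle (FDR 0.00333) against baseline. MAPK14 (p38 alpha), which can activate MAPKAPK5, fell likewise, at -1.55 with pralatrexate (FDR 0.00348) and -1.58 with vehicle (FDR 0.00333). SGK1, a target of ERK5, had the highest value of the 13 with vehicle against baseline, 0.22 ± 0.16 (SD, 4 sgRNAs; FDR 0.685). The median of the 13 was 0.02 with pralatrexate and 0.01 with vehicle, against 0.01 and 0.02 over all genes.

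Among 15 genes that encode 9 conventional MAPKs and 6 of their MAPK kinases, 1 was depleted in each day 10 group against baseline, MAPK14, which is in both lists. The share of all genes was 7.21% with pralatrexate and 6.68% with vehicle. In the same 2 comparisons 0 were enriched (0.262% and 0.393% of all genes). MAPK9 (JNK2) had the highest value with vehicle against baseline, 0.26 ± 0.13 (SD, 4 sgRNAs; FDR 0.556). The median of the 15 was -0.07 with pralatrexate and -0.03 with vehicle, against 0.01 and 0.02 over all genes. 0 of the 15 were called with pralatrexate against vehicle (0.524% depleted and 0% enriched over all genes).

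MAPK6 had the largest change with vehicle against baseline of the 7 genes, and the genes whose levels followed its own most closely over the 9 libraries included CKS1B (Pearson r = 0.981) and NOL9 (0.964). These are correlations over libraries of 3 groups, so they describe the drop between baseline and day 10 more than anything within a group. MAPKAPK5 came 125th of 762 genes by this measure (0.778), while MAPK4 (-0.22) came 432nd and NLK (-0.73) 664th.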

How the data were processed

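Reads of 28 sgRNAs against 7 genes were taken from a count table of 9 libraries of RH4 cells, 3 per group. The authors deposited raw counts of reads per sgRNA, not normalized. The submitters' processing notes name Bowtie 1.0.0, and which program counted the reads, and how, is not given in the sources used here. No molecular identifiers are mentioned, so PCR copies counted as separate reads. Gene tables of the authors' comparisons from MAGeCK (log2 fold changes, scores and p-values) were not used. Groups came from the sample titles, and 0 per-sample columns were left unmapped.

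sgRNAs with a mean under 30 reads were removed (7 of 3152). The other 3145 were scaled by TMM and fitted with edgeR 4.0.16 in R 4.3.3 (quasi-likelihood, group as the only term, all 9 libraries). The common dispersion was 0.0173. For each direction the one-sided p-values of all sgRNAs were ranked, and robust rank aggregation, the method of MAGeCK, which was not installed, joined those of each gene that were under 0.25. The gene p followed from the closed-form distribution of ordered uniform ranks with Benjamini-Hochberg adjustment over the 763 genes (FDR, called under 0.05). Gene log2 fold changes were means over sgRNAs. Intervals (95%) and gene levels came from log2 CPM with a prior count of 2 (limma 3.58.1). Single sgRNAs were adjusted over all 3145. The scripts were tested on simulated data.

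Same-numbered pralatrexate and vehicle libraries deviated together (correlations of 0.175, 0.198 and 0.188), so their numbers, taken from the labels, pair them. The main fits and the limma intervals had group as the only term, so for pralatrexate against vehicle they leave this pairing out. The replicate block, run as an alternative, includes it. Same-numbered vehicle and baseline libraries had weaker correlations (0.0706, 0.0224 and 0.0615), which still lay above those of differing numbers (-0.071 to 0.0111). They were not taken as pairs, and whether they are is not settled. Pralatrexate and baseline (0.0207, -0.0307 and -0.0065) lay within the range of differing numbers (-0.0427 to 0.0489) and were not taken as pairs either. Within groups, pairs of libraries varied 10.7 to 25.7 times as much as sampling alone gives, so none was deposited again. Alternatives were DESeq2 1.42.0, scaling on non-targeting sgRNAs, other filters, 2 groups per fit, the replicate block, gene sums, limma and leaving out each library.

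All 7 genes are named with all values. Of 13 pathway kinases and 15 conventional MAPK genes, those called and the lowest and highest with vehicle against baseline are named, and for the gene of largest change the 3 genes most like it, of which 1 is not reported here. Genes, lists and rules were chosen with earlier results of these data known, so lists have no test.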

Additional observations from a re-analysis of the deposited data

How the results depend on the processing

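Under other settings 272 gene values kept their direction and their side of the threshold, 18 changed sign, 6 gained a call and 2 lost one, while 67 counts stayed within 1.5 times and 11 did not. With the replicate block, 0 genes were called with pralatrexate against vehicle and with vehicle against baseline, and 1, MAPK6 (-0.59, FDR 0.0281), with pralatrexate against baseline, so the block changed no gene call. It called 7 sgRNAs in each day 10 group against baseline. The genes called numbered 2 by edgeR on summed reads and 2 by limma in each day 10 group against baseline, and 0 on non-targeting scaling with pralatrexate against baseline. These tests called 297 and 227 of all genes with pralatrexate against baseline, against 55 depleted and 2 enriched by rank aggregation. The sgRNAs called numbered 16 on non-targeting scaling in both, and 8 by DESeq2 with vehicle against baseline. Leaving out 1 library gave 4 to 6 called sgRNAs with pralatrexate, 4 without baseline replicate 1 or 3, and 3 to 5 with vehicle, 3 without baseline replicate 3. For the block, DESeq2 and the left-out libraries, the share of all sgRNAs called was not counted. Whether these counts moved with the whole library is therefore not known. Over all sgRNAs, 412 were lower and 188 higher with pralatrexate against baseline on TMM scaling and 1350 and 8 on non-targeting scaling, and with vehicle 401 and 197 against 1421 and 11.

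Values near 0 changed sign. On non-targeting scaling MAPK4 (-0.17) and NLK (-0.18) did so with pralatrexate against baseline, and MAPK7 (-0.28), MAPK15 (-0.31) and NLK (-0.22) with vehicle against baseline, since that scaling moves every gene down. MAP2K5 did so with summed reads, at 0.015 with pralatrexate and 0.029 with vehicle against baseline, and at 0.049 with pralatrexate against vehicle at a minimum mean of 300 reads, which leaves out its sgRNA 2. Leaving out 1 library gave -0.085 to 0.023 for MAP2K5 and -0.035 to 0.069 for MAPK15 with vehicle against baseline, -0.051 to 0.012 for MAPK7 and -0.068 to 0.017 for MAPK15 with pralatrexate against baseline, and -0.10 to 0.0046 for MAPK15 and -0.0027 to 0.066 for NLK with pralatrexate against vehicle. The cause of the other changes was not tested. Depth limits MAP2K5 sgRNA 2 most, with 71 to 303 reads.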
